A study of Homo sapiens with 15 samples.

Results

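The genes described here are 35 aminoacyl-tRNA synthetase genes, 19 whose enzymes work in the cytosol and 16 whose enzymes work in mitochondria, out of 62754 genes in the count table. They were chosen by name: a gene entered when its Ensembl identifier maps to a listed symbol in its current or older form (AARS for AARS1, for example) and the rule itself uses no measured value, though the set was proposed with earlier results of these data known. Symbols ending in 2 form the mitochondrial class. GARS1 and KARS1 each supply both compartments from 1 gene and were counted with the cytosolic class. FARSA and FARSB encode the 2 kinds of subunit of a single cytosolic enzyme.

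The RNA came from the human line NCI-H69, established from a small cell lung cancer of the classic type, and the question was how the transcriptome responds when FTO, the demethylase acting on m6A in RNA, is inhibited. Cells received CS2, FB23-2 or the solvent DMSO, which was the control, with 3 libraries in each of the 3 groups. The labels name no genetic change in any group, and all libraries come from this 1 line, so they say nothing of other lines. No dose or treatment time was given, so differences between the compounds are differences between treatments of unknown strength. CS2 is another name for brequinar, known for inhibiting DHODH of pyrimidine synthesis. The series describes its replicates as biological, and the 6 H82 libraries in the labels were not analysed here.

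An aminoacyl-tRNA synthetase joins an amino acid to the transfer RNAs that carry its anticodons, and so sets which amino acid each codon is read as. Most amino acids have a pair of such enzymes, a cytosolic one that serves the ribosomes of the cytoplasm and a mitochondrial one, also encoded in the nucleus and imported, that serves the translation of the mitochondrial genome. Several cytosolic synthetases are held together in a multisynthetase complex, and many cytosolic synthetase genes are known targets of ATF4, the transcription factor of the integrated stress response, a programme that cells start when amino acids run short or protein folding fails.

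Total counts ranged from 29916267 to 45022633 per library, and a count of 3 corresponded to 0.0666 to 0.101 CPM (the read count scaled to the TMM-adjusted library size). The mitochondrial genome took 5.18% to 5.69% of the counts with DMSO, 7.3% to 9.05% with CS2 and 6.83%, 11% and 6.91% in FB23-2 replicates 1, 2 and 3, so FB23-2 replicate 2 stood apart. Markers of the labelled cell type were present: INSM1 and CHGA were detected in all 9 libraries, with DMSO means of 858.9 and 604.4 CPM. The defining markers DCN, CD3E and KDR were at 0 in all 9 libraries, and summed leukocyte, endothelial and squamous markers stayed between 0.05831 and 4.132 CPM. Summed fibroblast markers lay at 52.71 to 54.45 CPM with DMSO, 33.07 to 39.65 with CS2 and 10.55 to 15.26 with FB23-2, nearly all of it COL1A2; its part in the results was not tested. In bulk RNA a lower share of cells expressing a gene and less of its RNA per cell cannot be told apart.

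In DMSO-treated cells the cytosolic class was the more abundant. Levels of single genes are compared per kilobase of exon, whereas the class sums given later are in CPM without regard to length. The median cytosolic gene stood at 38.66 CPM per kb (range 7.776 to 113.7) and the median mitochondrial gene at 8.70 (range 0.07697 to 44.04). NARS1, the asparagine enzyme, was the highest at 113.7 ± 5.002 CPM per kb (SD, n = 3), followed by IARS1 for isoleucine at 71.42 ± 2.489, and neither overlapped the gene that followed it. EPRS1, which charges both glutamate and proline, FARSA and GARS1 followed at means of 60.16, 59.6 and 59.24, and these neighbours overlapped in their 3 libraries. IARS2 was the highest mitochondrial gene at 44.04 ± 1.132, and its libraries overlapped those of its neighbours in the order, WARS1 above and AARS1 after it. The lowest cytosolic gene was CARS1 at 7.776 ± 0.1305, where the exon length was 10.04 kb. Exon length here takes together all annotated exons of a gene, so it can exceed the length of the transcript expressed and lower the value. The lowest of all was VARS2 at 0.07697 ± 0.03722, where its 3 libraries held 0.03427, 0.09412 and 0.1025.

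**Figure D1:**
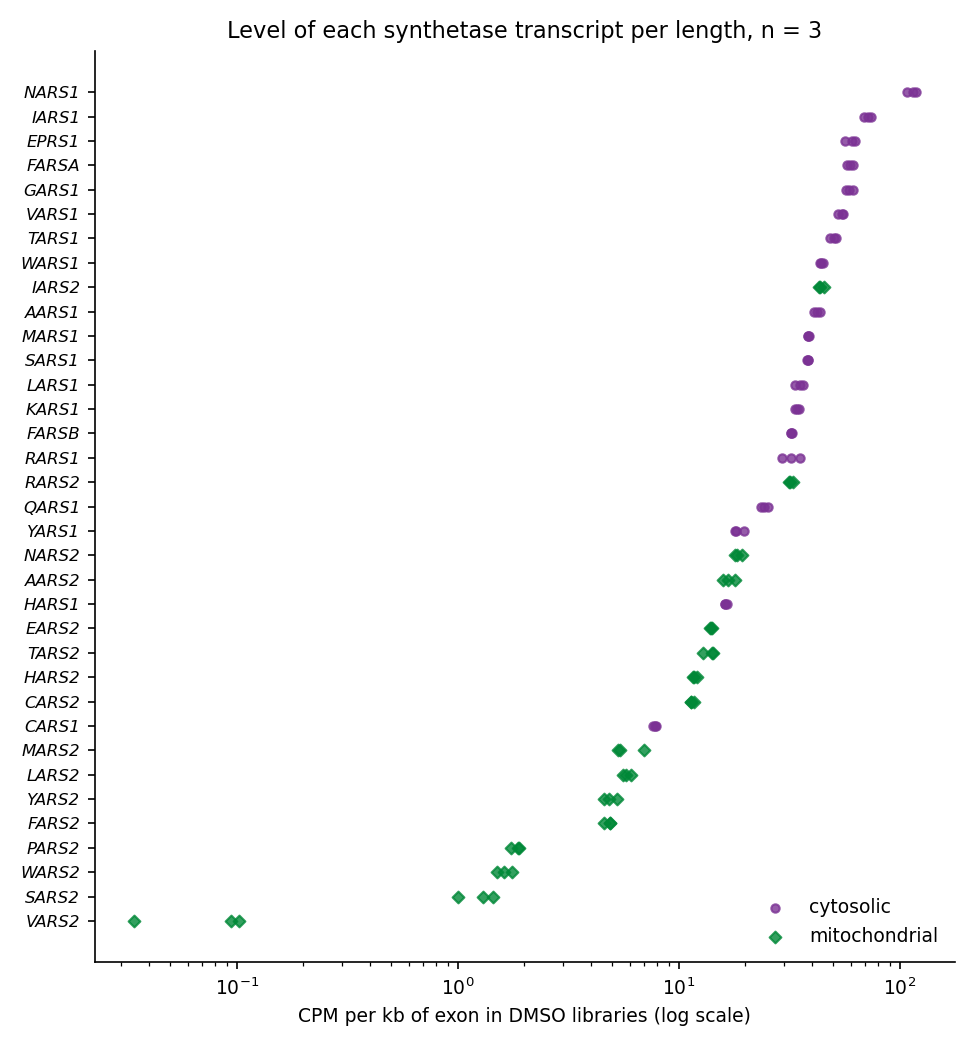
Level of each of the 35 genes in the 3 DMSO libraries, in CPM per kilobase of exon on a log axis, coloured by class. NARS1 stands highest at a mean of 113.7, and the mitochondrial genes fill the lower end down to VARS2 at 0.07697.

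Some counts are uncertain because nothing used here states the counting tool or whether strand was used. Other genes on either strand together cover 57% of the exon bases of SARS2, 22% of VARS2, 15.8% of HARS2, 13.3% of MARS1 and 10.6% of WARS1. Genes on the same strand cover 46.2%, 22%, 4.1%, 0.9% and 0% of them, in that order. Of the 50-base stretches of their transcripts, 39.5% in SARS2 and 21.1% in VARS2 also occur in other genes. DDIT3, a stress response gene named here after its values were seen, is among the genes that overlap MARS1, and it rose with FB23-2 (2.52, adjusted p = 2.32e-13) and with CS2 (0.90, adjusted p = 3.46e-07).

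The first comparison asked what FB23-2 did relative to DMSO. Of the 19 cytosolic genes 13 rose, 4 fell and 2 did not pass, where a call is an adjusted p under 0.05 over 19781 genes. Across all genes tested, 25.4% were called higher and 26.7% lower. The cytosolic genes had a median log2 fold change of 0.758 against -0.001 for all genes. Of the 16 mitochondrial genes 2 rose, 5 fell and 9 did not pass, with a median of -0.146. A rise of at least 1 on the log2 scale was called for 4 of the 19 cytosolic genes and 0 of the 16 mitochondrial ones, against 7.01% of all genes.

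The 4 largest increases were in CARS1, GARS1, AARS1 and WARS1, all of them enzymes outside the multisynthetase complex. CARS1 (ENSG00000110619, chromosome 11, 3000922 to 3057613, minus strand, GRCh38) charges cysteine. It stood at 78.5, 79.06 and 76.57 CPM in the DMSO libraries and at 200.3, 205.6 and 201.5 with FB23-2. All FB23-2 libraries were above all DMSO libraries, a log2 fold change of 1.38 ± 0.07 (SE, n = 3 against 3; adjusted p = 1.35e-11; all adjusted p-values are from the quasi-likelihood test of edgeR, Benjamini-Hochberg adjusted). GARS1 (ENSG00000106105, chromosome 7, 30594681 to 30634033, plus strand), the glycine enzyme of both compartments, held 244.3, 255 and 238.5 CPM with DMSO and 573.1, 699.7 and 636.6 with FB23-2. The groups did not overlap, and replicate 2 was the highest of the treated libraries (log2 fold change 1.37 ± 0.08, adjusted p = 5.99e-11). AARS1 (ENSG00000090861, chromosome 16, 70252295 to 70289543, minus strand), which charges alanine, went from 195.7, 184.1 and 190 CPM to 480.1, 490.9 and 478.4. The treated libraries lay close together and far above the controls (1.35 ± 0.07, adjusted p = 5.08e-12). WARS1 (ENSG00000140105, chromosome 14, 100333788 to 100376805, minus strand), the tryptophan enzyme, went from 285.6, 281 and 278.4 CPM to 564.4, 680 and 597.3. Here too the groups did not overlap and replicate 2 was the highest (1.12 ± 0.07, adjusted p = 3.06e-10).

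**Figure D2:**
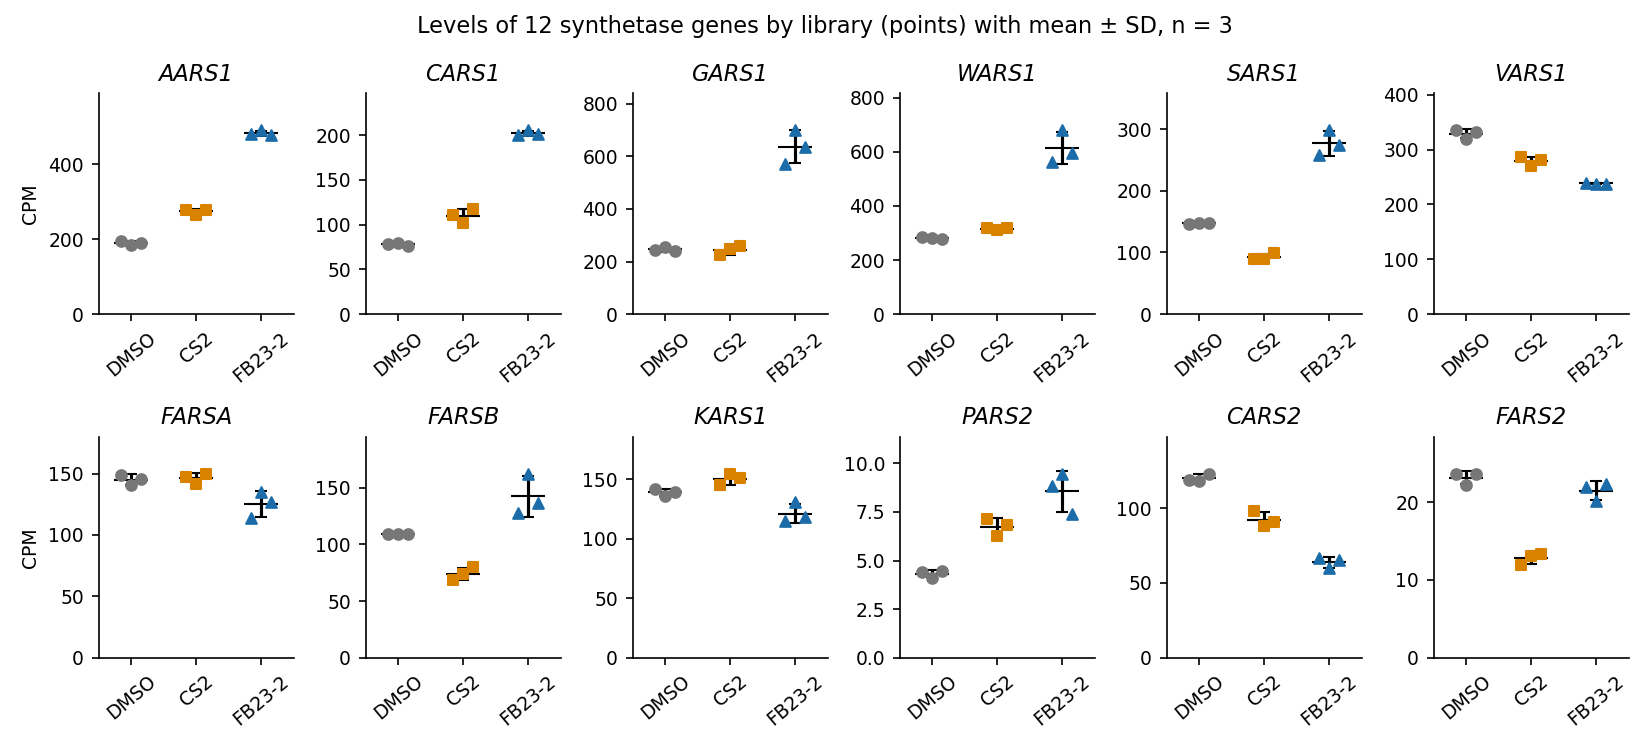
CPM of AARS1, CARS1, GARS1, WARS1, SARS1, VARS1, FARSA, FARSB, KARS1, PARS2, CARS2 and FARS2 in each of the 9 libraries. Each group (DMSO, CS2 and FB23-2) has 3 points. AARS1 and CARS1 step up from DMSO to CS2 to FB23-2, whereas SARS1 is lowest with CS2 (88.91 to 98.77) and highest with FB23-2 (258.8 to 298.2).

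The remaining increases were spread over enzymes of the complex and free enzymes. SARS1 (ENSG00000031698, chromosome 1, 109213918 to 109238169, plus strand), which charges serine and also supplies the tRNA on which selenocysteine is made, went from 146.3, 148 and 147.9 CPM with DMSO to 258.8, 298.2 and 273.6 with FB23-2. It rose with no overlap between groups (0.91 ± 0.07, adjusted p = 6.35e-09). YARS1 (ENSG00000134684, chromosome 1, 32775237 to 32818153, minus strand), the tyrosine enzyme, held 161.7, 149.5 and 148.2 CPM with DMSO and 249.4, 270.8 and 240.6 with FB23-2, again without overlap (0.73 ± 0.07, adjusted p = 1.01e-07). Among the other free enzymes TARS1 (threonine) rose by 0.97 and NARS1 (asparagine) by 0.85. Of the 7 genes of the complex 4 rose and 1 fell, and of the 12 free cytosolic genes 9 rose and 3 fell. Over all genes 25.4% were called higher and 26.7% lower, and a difference between complex and free genes was not tested. In the complex, IARS1 (ENSG00000196305, chromosome 9, 92210207 to 92293756, minus strand) stood at 509.4, 546.2 and 530.1 CPM with DMSO and at 980.7, 890.7 and 948 with FB23-2. MARS1 (ENSG00000166986, chromosome 12, 57475445 to 57517569, plus strand), the methionine enzyme, stood at 272.8, 270.7 and 271.5 CPM with DMSO and at 453.7, 460.8 and 464 with FB23-2. Both were separated fully from the controls (IARS1 0.83 ± 0.07, adjusted p = 1.38e-08; MARS1 0.76 ± 0.07, adjusted p = 1.41e-08). EPRS1 rose by 0.92 and LARS1, the leucine enzyme, by 0.52. All 13 increases kept their call in each of the 18 alternative analyses, including those without FB23-2 replicate 2 and without the genes of the mitochondrial genome.

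**Figure D3:**
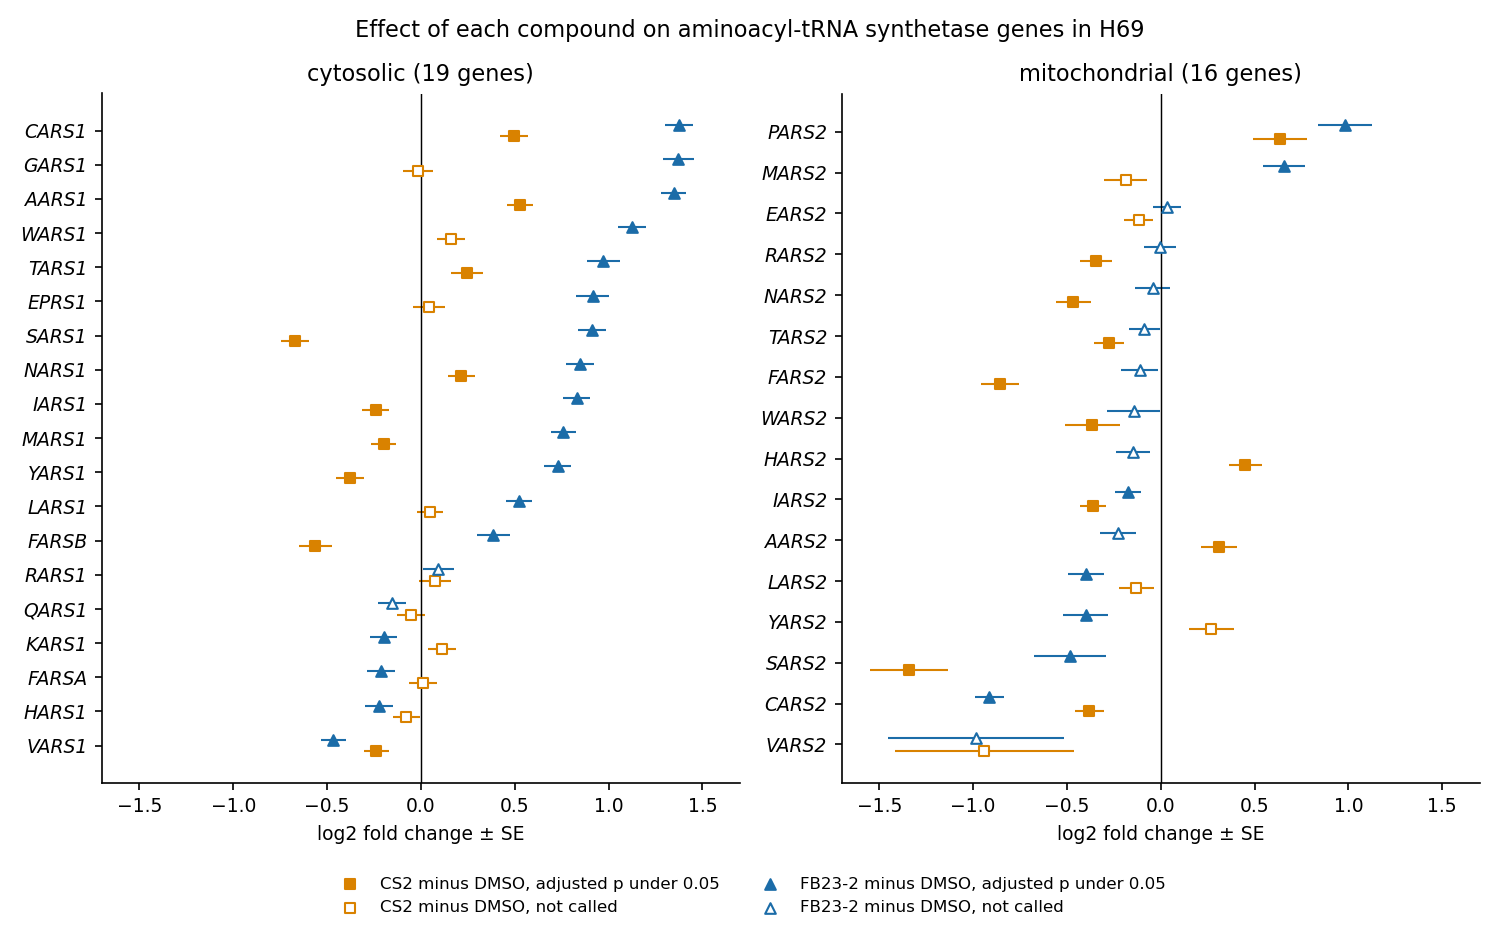
Log2 fold change of each of the 35 genes with FB23-2 and with CS2, each against the same DMSO libraries, with bars of 1 SE, grouped by class. The cytosolic genes reach 1.38 (CARS1) with FB23-2 and 0.53 (AARS1) with CS2, while the mitochondrial genes lie mostly at or under 0.

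Promoter sequences are shown because the genes that rose together can be read for a common stretch: the core of the C/EBP-ATF response element that ATF4 binds, TGATGNAA, or TTNCATCA on the opposite strand. RefSeq promoter windows (GRCh38.p14, 250 bases before to 50 after a transcript's start) were matched for 30 of the 35 genes by symbol, 39 windows in all. LARS1, VARS1, YARS1, AARS2 and VARS2 had no matched window and are left out of these counts. The core was found in 7 of 16 cytosolic genes (43.75%) and in 1 of 14 mitochondrial genes, against 3.62% of all 35116 windows and 4.46% of 27305 genes. The 7 were all among the 11 cytosolic genes with a window that rose with FB23-2. EPRS1, FARSB, SARS1 and WARS1 rose without the core, and CARS1, GARS1 and TARS1 held it in only 1 of 2 windows each. Of the cytosolic genes with a window, 0 of the 3 that fell and 0 of the 2 that did not pass held it. The 3 are FARSA, HARS1 and KARS1, whose calls were lost in some alternatives. VARS1, the largest decrease of the class, is not among them for lack of a window. In the mitochondrial class YARS2, the 1 gene with the core, fell with FB23-2, and the 2 genes that rose, PARS2 and MARS2, lacked the core. Counting only the bases before the start, 3 of the 16 cytosolic genes held it, against 3.89% of genes. The narrower TGATGCAA, a form chosen after seeing the files, was in 6 of 16 cytosolic genes, 0 of 14 mitochondrial genes and 1.08% of all genes. The sequences are printed 5′ to 3′ on the gene's strand with the core in capitals, and positions count from 1 at the start, with -1 the base before it. AARS1 (minus strand, chr16:70289676-70289703) has the core at -187 to -180, CARS1 (minus, chr11:3057408-3057435) at -2 to 6, GARS1 (plus, chr7:30594835-30594862) at -33 to -26 and IARS1 (minus, chr9:92293693-92293720) at -13 to -6. MARS1 (plus, chr12:57488054-57488081) has it at -4 to 4, NARS1 (minus, chr18:57621805-57621832) at 15 to 22, TARS1 (plus, chr5:33440957-33440984) at 3 to 10 and YARS2 (minus, chr12:32756077-32756104) at -197 to -190.
AARS1: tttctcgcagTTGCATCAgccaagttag
CARS1: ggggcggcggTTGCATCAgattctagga
GARS1: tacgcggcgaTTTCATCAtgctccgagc
IARS1: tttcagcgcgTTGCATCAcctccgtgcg
MARS1: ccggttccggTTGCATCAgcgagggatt
NARS1: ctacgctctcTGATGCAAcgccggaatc
TARS1: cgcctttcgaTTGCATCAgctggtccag
YARS2: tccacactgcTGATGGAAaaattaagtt
In 6 of the 7 cytosolic genes the letters are TGATGCAA on one strand or the other, GARS1 having TTTCATCA and the mitochondrial YARS2 TGATGGAA. These matches describe letters within a window and show no binding.

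Not every cytosolic gene rose with FB23-2. VARS1 (ENSG00000204394, chromosome 6, 31777518 to 31795953, minus strand), the valine enzyme, held 335.5, 320.4 and 332.1 CPM with DMSO and 239.4, 237.5 and 238.3 with FB23-2. It fell without overlap between groups (-0.47 ± 0.07, adjusted p = 7.76e-06), the largest decrease of the class. KARS1 (ENSG00000065427, chromosome 16, 75627474 to 75648643, minus strand), the lysine enzyme of both compartments, went from 141.8, 136.4 and 139.1 CPM to 114.9, 130.7 and 118.1 (-0.20 ± 0.07, adjusted p = 0.0295). GARS1, the other gene that supplies both compartments, was among the largest increases. HARS1, for histidine, was called lower at -0.22 (adjusted p = 0.0158). QARS1, for glutamine, was at -0.15 (adjusted p = 0.0955) and RARS1, for arginine, at 0.09 (adjusted p = 0.373), so neither passed. The small decreases did not hold throughout. KARS1 lost its call without any 1 of DMSO replicates 1, 2 and 3, CS2 replicate 3 or FB23-2 replicates 1 and 3 (adjusted p 0.0533 to 0.148 there, 3.90e-04 to 0.148 over all alternatives). With only the groups compared, the KARS1 call was lost as well (adjusted p = 0.0565). HARS1 lost its call without DMSO replicate 2 (-0.22, adjusted p = 0.055; 5.30e-04 to 0.055 over all alternatives).

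The subunits of the phenylalanine enzyme moved apart. FARSB (ENSG00000116120, chromosome 2, 222570536 to 222656337, minus strand) stood at 109.5, 109 and 108.9 CPM with DMSO and at 128.1, 162.5 and 136.9 with FB23-2, and rose without overlap (0.39 ± 0.09, adjusted p = 0.00106). FARSA (ENSG00000179115, chromosome 19, 12922479 to 12934037, minus strand) stood at 149.2, 140.7 and 145.5 CPM with DMSO and at 113.8, 135 and 126.9 with FB23-2, lower in every treated library (-0.21 ± 0.08, adjusted p = 0.0249). With CS2, FARSB fell to 68.57, 73.49 and 79.64 CPM (-0.56 ± 0.09, adjusted p = 2.76e-05), whereas FARSA at 147.6, 141.4 and 149.9 overlapped its controls (0.01 ± 0.08, adjusted p = 0.914). The FARSB calls held in all 18 alternatives. The FARSA call with FB23-2 ended when DMSO replicate 1 was left out (-0.19, adjusted p = 0.0854) or replicate 3 (-0.21, 0.0735), without FB23-2 replicate 1 (-0.14, 0.175) or replicate 3 (-0.21, 0.0636), and after correction for GC content and gene span (-0.05, 0.635; 0.00262 to 0.635 over all alternatives). That correction also turned FARSA with CS2 to -0.21 (adjusted p = 0.0321; 0.0321 to 0.999 over all alternatives).

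Mitochondrial genes showed smaller and mixed differences with FB23-2. PARS2 (ENSG00000162396, chromosome 1, 54756898 to 54764514, minus strand), the mitochondrial proline enzyme, is expressed at a low level, with 4.421, 4.103 and 4.463 CPM in DMSO and 8.825, 9.469 and 7.376 with FB23-2. It rose by 0.98 ± 0.14 with no overlap (adjusted p = 1.13e-05). MARS2, for methionine, a gene given by library because it was the only other mitochondrial increase and so chosen after its values were seen, went from 20.95, 16.03 and 16.41 CPM to 27.85, 29.15 and 27.2 (0.66 ± 0.11, adjusted p = 5.38e-05). In the other direction, CARS2 (ENSG00000134905, chromosome 13, 110641412 to 110713603, minus strand), the mitochondrial cysteine enzyme, went from 119.2, 118.5 and 123.1 CPM to 66.66, 59.83 and 65.22. All its treated libraries were below all controls (-0.91 ± 0.08, adjusted p = 8.93e-09), while its cytosolic partner CARS1 had the largest increase of all. YARS2 (ENSG00000139131, chromosome 12, 32727490 to 32755902, minus strand), for tyrosine, went from 11.32, 9.923 and 10.46 CPM to 7.662, 7.479 and 8.922 (-0.40 ± 0.12, adjusted p = 0.00913), also opposite in direction to its cytosolic partner YARS1. LARS2 fell by 0.40 and IARS2 by 0.18. SARS2, at 4.211, 3.244 and 4.686 CPM with DMSO and 2.952, 2.637 and 3.149 with FB23-2, was called lower (-0.48 ± 0.19, adjusted p = 0.0428), but its count is uncertain for the overlap given above.

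Of these mitochondrial calls, those of IARS2 and SARS2 were fragile. IARS2 (adjusted p = 0.0363) lost its call without any 1 of 8 libraries, all except CS2 replicate 1 (adjusted p 0.0527 to 0.127 there, 1.60e-04 to 0.127 over all alternatives). SARS2 lost its call without DMSO replicate 1 or 3 or any FB23-2 replicate (adjusted p 0.0588 to 0.206 there, 0.0229 to 0.206 over all alternatives). With all libraries kept, IARS2 and SARS2 also lost their calls without a filter (adjusted p = 0.0838 and 0.0685). IARS2 did so too with only the groups compared (0.0672) and without mitochondrial genome genes (0.0524). SARS2 did so with library size alone (0.0516), under DESeq2 and after the GC and span correction (0.141). The calls of PARS2, MARS2, CARS2, LARS2 and YARS2 were kept in all 18. AARS2, not called (-0.23, adjusted p = 0.0537), passed without FB23-2 replicate 1 (-0.30, adjusted p = 0.0178; 0.0155 to 0.245 over all alternatives).

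The second comparison set CS2 against DMSO, and it shares its control libraries with the first. Of the 19 cytosolic genes 4 rose and 6 fell, and of the 16 mitochondrial genes 3 rose and 8 fell, against 24.3% of all genes higher and 25.3% lower. After a correction for GC content and gene span 2 cytosolic genes were higher and 9 lower. The cytosolic median was 0.012 and the mitochondrial median -0.31, with -0.002 over all genes. Both AARS1 and CARS1 rose: AARS1 stood at 278.4, 265 and 278.5 CPM, above all 3 controls (0.53 ± 0.07, adjusted p = 2.07e-06), and CARS1 at 111, 102.3 and 117 (0.50 ± 0.07, adjusted p = 1.32e-05). NARS1 (0.22) and TARS1 (0.24) were called higher, and both lost the call when CS2 replicate 3 or either of DMSO replicates 1 and 3 was left out, and after that correction (adjusted p up to 0.274 for NARS1 and up to 0.152 for TARS1; from 0.00557 and 0.00184 over all alternatives).

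The 6 cytosolic genes that fell with CS2 were SARS1, FARSB, YARS1, IARS1, VARS1 and MARS1. SARS1 stood at 88.91, 89.82 and 98.77 CPM, all under the controls (-0.67 ± 0.08, adjusted p = 4.53e-07). YARS1 stood at 117.9, 114 and 121.7 (-0.38 ± 0.07, adjusted p = 2.84e-04) and VARS1 at 286.2, 270.9 and 280.5 (-0.24 ± 0.07, adjusted p = 0.00538). Both were lower in every CS2 library than in every control. IARS1 at 419, 443 and 479.2 (-0.24 ± 0.07, adjusted p = 0.00893) and MARS1 at 245.4, 227.5 and 236.8 (-0.20 ± 0.07, adjusted p = 0.017) also did not overlap the controls. IARS1 lost its call without CS2 replicate 1 (-0.19, adjusted p = 0.054; 0.00179 to 0.054 over all alternatives). For MARS1 the call ended with CS2 replicate 2 left out (-0.17, adjusted p = 0.0892) or DMSO replicate 3 left out (-0.20, 0.059; 5.16e-05 to 0.0892 over all alternatives). FARSB, IARS1, MARS1, SARS1 and YARS1 are also among the genes given above as higher with FB23-2, in a comparison with the same DMSO libraries. GARS1 at 224.1, 247.1 and 259.2 CPM overlapped its controls (-0.02 ± 0.08, adjusted p = 0.897). KARS1 at 145.2, 154.7 and 151.3 (0.11 ± 0.07, adjusted p = 0.213) and WARS1 at 317, 309.4 and 318.1 (0.16 ± 0.07, adjusted p = 0.0789) sat above their controls without passing. WARS1 passed without FB23-2 replicate 2 (0.16, adjusted p = 0.021; 0.021 to 0.692 over all alternatives).

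In the mitochondrial class, SARS2 (ENSG00000104835, chromosome 19, 38915266 to 38930896, minus strand) showed the largest decrease with CS2, at 1.503, 1.878 and 1.431 CPM (-1.34 ± 0.21, adjusted p = 2.25e-05), all below the controls. The SARS2 count, 51, 56 and 43 reads in these libraries, is uncertain for the overlap given above. SARS1, the cytosolic partner of SARS2, fell as well. FARS2, for phenylalanine, given by library after its values were seen, went from 23.66, 22.26 and 23.61 CPM to 11.97, 13.11 and 13.27 (-0.86 ± 0.10, adjusted p = 8.26e-07). FARS2 spans 568.1 kb, and after the correction for GC content and span, which sets each gene against genes of like span and GC, the value was 0.03 (adjusted p = 0.817; 5.55e-14 to 0.817 over all alternatives). CARS2 at 97.9, 88.28 and 90.72 CPM fell by 0.38 (adjusted p = 3.66e-04), and NARS2, IARS2, RARS2, TARS2 and WARS2 fell by 0.28 to 0.47. The WARS2 call (adjusted p = 0.0441) was lost without DMSO replicate 2 or 3, any CS2 replicate or FB23-2 replicate 3 (adjusted p 0.0524 to 0.154 there, 0.033 to 0.154 over all alternatives). With all libraries kept, the WARS2 call was also lost under DESeq2, without a filter (0.11) and after the GC and span correction (0.142). The 3 increases were in PARS2, at 7.134, 6.239 and 6.82 CPM (0.64 ± 0.15, adjusted p = 0.00127), HARS2 (0.45) and AARS2 (0.31). AARS2 lost its call without DMSO replicate 2 (0.27, adjusted p = 0.0635) and after the GC and span correction (0.09, 0.317; 3.25e-04 to 0.317 over all alternatives). YARS2 at 12.62, 12.98 and 12.64 CPM did not pass (0.27 ± 0.12, adjusted p = 0.0663), but passed without FB23-2 replicate 2 (0.27, adjusted p = 0.0417; 0.0347 to 0.369 over all alternatives). VARS2, given by library after its values were seen, was low, with 0.5306, 0.1677 and 0.2994 CPM with CS2 (-0.94, adjusted p = 0.109). It passed with CS2 replicate 1 (-1.46, adjusted p = 0.0432) or DMSO replicate 1 (-1.29, 0.0316) left out (0.0316 to 0.376 over all alternatives), and with FB23-2 it was at -0.98 (adjusted p = 0.0854), passing without DMSO replicate 1 (-1.34, 0.0245; 0.0245 to 0.33 over all alternatives).

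HARS1 and HARS2 are a divergent pair on chromosome 5 whose starts lie 85 bases apart, so that their promoter windows share 184 bases. They are given by library after their values were seen. HARS1 stood at 126.9, 129.5 and 126.9 CPM with DMSO, 127.3, 119.9 and 116.2 with CS2 and 115.3, 102.1 and 110.8 with FB23-2. HARS2 stood at 43.55, 45.29 and 43.88 CPM with DMSO, 60.14, 59.67 and 61.65 with CS2 and 41.8, 34.78 and 43.33 with FB23-2. HARS2 was thus higher in all CS2 libraries, where HARS1 overlapped its controls (-0.08, adjusted p = 0.408). After the GC and span correction HARS1 was called lower with CS2 (-0.21, adjusted p = 0.0105). Exons of HARS1 cover 11.7% of the exon bases of HARS2, so how reads were shared between the pair is uncertain.

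The direct test of FB23-2 against CS2 does not use the DMSO libraries in its contrast, and here 29.7% of all genes were called higher with FB23-2 and 30% lower. Of the 19 cytosolic genes 13 were higher with FB23-2 and 3 lower (median 0.818, against 0.01 for all genes), and 15 and 1 after the GC and span correction. Of the 16 mitochondrial genes 7 were higher and 5 lower (median 0.187). SARS1 differed most, at 1.58 ± 0.08 (adjusted p = 2.77e-12), followed by GARS1 at 1.39 ± 0.08 (3.78e-11), YARS1 at 1.11 ± 0.07 (2.15e-10) and IARS1 at 1.07 ± 0.07 (2.48e-10). The 13 cytosolic genes higher with FB23-2 kept that call in all 18 alternatives. In the other direction KARS1 differed most, at -0.31 ± 0.07 (adjusted p = 0.00118), with VARS1 at -0.23 and FARSA at -0.22. After the GC and span correction VARS1 was called in the other direction (0.20, adjusted p = 0.00752; 0.00163 to 0.0228 over all alternatives) and FARSA stood at 0.16 (0.0819).

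Among the mitochondrial genes, SARS2 was higher with FB23-2 than with CS2 (0.86 ± 0.21, adjusted p = 0.00164), as were MARS2 (0.85), FARS2 (0.75), NARS2 (0.42), PARS2 (0.35), RARS2 (0.34) and IARS2 (0.18). The SARS2 count is uncertain here too for its overlap with other genes. YARS2 was lower (-0.67 ± 0.12, adjusted p = 8.53e-05), as were HARS2 (-0.60), AARS2 (-0.54), CARS2 (-0.53) and LARS2 (-0.27). The calls of FARS2 (0.19, adjusted p = 0.0972; 4.25e-11 to 0.0972 over all alternatives) and NARS2 (0.17, 0.079; 8.31e-05 to 0.079) were lost after the GC and span correction, as was that of IARS2 (0.09, 0.202). Others were lost when a library was left out. FARSA lost its call without CS2 replicate 3 (-0.20, adjusted p = 0.0642) or FB23-2 replicate 1 (-0.15, 0.124; 0.00141 to 0.124 over all alternatives). LARS2 lost its call without CS2 replicate 2 (-0.24, adjusted p = 0.0727) or FB23-2 replicate 2 (-0.18, 0.0883; 5.25e-04 to 0.0883 over all alternatives). IARS2 lost its call without CS2 replicate 1 or 3 or FB23-2 replicate 3 (adjusted p 0.0585 to 0.0654 there, 0.00975 to 0.202 over all alternatives). PARS2 lost its call without DMSO replicate 2 or 3, CS2 replicate 2 or 3 or FB23-2 replicate 1 or 2 (adjusted p 0.0507 to 0.142 there, 0.00187 to 0.142 over all alternatives). With all libraries kept, IARS2 and PARS2 also lost their calls without a filter (adjusted p = 0.102 and 0.0984) and with only the groups compared (0.056 and 0.0599). PARS2 lost its call under DESeq2 as well. TARS2, not called (0.19, adjusted p = 0.0515), passed after the GC and span correction (0.41, adjusted p = 1.09e-04) and without FB23-2 replicate 2 (0.19, 0.0492) or replicate 3 (0.22, 0.0481; 1.09e-04 to 0.157 over all alternatives).

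Summed over the class, the cytosolic genes took 4270, 4402 and 4341 CPM with DMSO, 4200, 4300 and 4540 with CS2 and 6932, 7530 and 7292 with FB23-2. The CS2 libraries overlapped the controls and the FB23-2 libraries lay above both. The mitochondrial genes summed to 804.6, 805.3 and 802.2 CPM with DMSO, 701.2, 705.2 and 705.7 with CS2 and 719.6, 691.2 and 709.8 with FB23-2, lower in every treated library. Abundant genes weigh most in such sums. With FB23-2, CARS2 went from a mean of 120.3 to 63.91 CPM and IARS2 from 183.4 to 162.4. Of the 16 genes, 9 were not called with FB23-2, 5 fell and 2 rose, so the lower sum does not describe each gene. The ratio of the cytosolic to the mitochondrial sum was 5.40 ± 0.08 (SD, n = 3) with DMSO, 6.17 ± 0.23 with CS2 and 10.3 ± 0.63 with FB23-2. These sums are not divided by exon length, so the ratio is read between groups only. The ranges of the 3 groups did not overlap, and the sums were not tested.

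**Figure D4:**
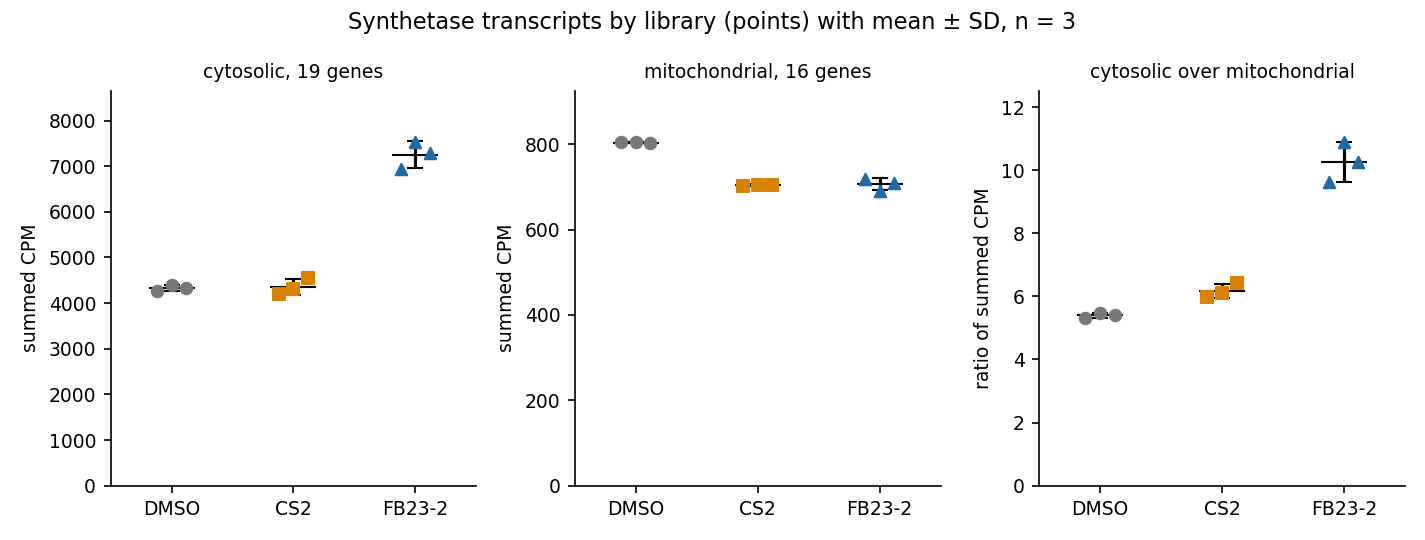
Summed CPM of the 19 cytosolic and the 16 mitochondrial genes in each library, with the group mean and SD of 3 libraries. The cytosolic sum is 4200 to 4540 with CS2, where it overlaps DMSO, and 6932 to 7530 with FB23-2, while the mitochondrial sum is lower with both compounds.

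Other genes of the charging pathway came from lists set with earlier results known, and of each list the genes named are those with the largest called increase and decrease against DMSO by either compound, a choice made after their values were seen. Of 6 scaffold and delivery factors 2 rose and 2 fell with each compound, where 25.4% of all genes were higher and 26.7% lower with FB23-2, and 24.3% and 25.3% with CS2. EEF1A1, the elongation factor that carries charged tRNA to the ribosome, held 6783, 6678 and 6536 CPM with DMSO, 2083, 2029 and 2560 with CS2 and 6450, 6309 and 6219 with FB23-2. It was lower in all CS2 libraries (-1.58 ± 0.08, adjusted p = 1.35e-11), while with FB23-2 it was at -0.08 (adjusted p = 0.453). AIMP2, a scaffold of the multisynthetase complex, rose with FB23-2 (0.51 ± 0.12, adjusted p = 0.00100) and was at -0.14 with CS2 (adjusted p = 0.32). EEF1E1, another complex subunit, rose by 0.51 with CS2 and by 0.28 with FB23-2, the latter not without DMSO replicate 1 (0.27, adjusted p = 0.0754) or replicate 3 (0.25, 0.107) or after the GC and span correction (0.003, 0.98; adjusted p 0.0158 to 0.98 over all alternatives). TUFM, which delivers charged tRNA in mitochondria, fell by 0.28 with FB23-2, though not after that correction (-0.10, adjusted p = 0.152; 6.85e-04 to 0.152 over all alternatives), and was at -0.02 with CS2 (adjusted p = 0.853).

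Of 10 genes of other charging steps 5 rose and 0 fell with FB23-2, and 4 rose and 3 fell with CS2, against the same shares of all genes (25.4% and 26.7% with FB23-2, 24.3% and 25.3% with CS2). XPOT, the exporter of tRNA from the nucleus, rose from 385.4, 393.7 and 377.9 CPM to 673.3, 760.6 and 652.7 with FB23-2 (0.85 ± 0.08, adjusted p = 1.84e-08) and to 425.4, 456.6 and 485.9 with CS2 (0.24 ± 0.08, adjusted p = 0.012). The smaller increase did not pass when CS2 replicate 3 (0.20, adjusted p = 0.0597) or DMSO replicate 3 (0.23, 0.0559) was left out (0.00140 to 0.0597 over all alternatives). PSTK, a kinase on the path to selenocysteine, rose by 0.64 with FB23-2 (adjusted p = 0.00647). With CS2 it was called lower (-0.49, adjusted p = 0.0474), which did not hold without DMSO replicate 2 or 3, any CS2 replicate or FB23-2 replicate 1 or 3 (adjusted p 0.053 to 0.187 there, 0.0191 to 0.187 over all alternatives). With all libraries kept, this call was also lost under DESeq2, without a filter (0.118), with RLE factors (0.0509) and with only the groups compared (0.0537). TRNT1, which adds the CCA end to tRNA, rose by 0.52 with CS2 (adjusted p = 3.02e-04) and was at 0.18 with FB23-2 (adjusted p = 0.137). Of 7 mitochondrial translation factors 2 rose and 1 fell with FB23-2, and 0 rose and 2 fell with CS2, which for FB23-2 is near those shares. MRRF, the mitochondrial ribosome recycling factor, was higher with FB23-2 (0.66, adjusted p = 1.88e-05) and lower with CS2 (-0.72, adjusted p = 1.17e-05), and MTRF1L, a release factor, fell by 0.38 with FB23-2 and was at -0.02 with CS2 (adjusted p = 0.871).

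Of 9 reference genes of the integrated stress response, 9 rose with FB23-2 (median 2.516; 25.4% of all genes) and 8 rose and 1 fell with CS2 (median 0.67; 24.3% and 25.3% of all genes). The gene that fell with CS2 was ATF4 itself, from 373.6, 317.9 and 322.1 CPM to 235, 215.2 and 235.9 (-0.56 ± 0.08, adjusted p = 8.17e-06), whereas with FB23-2 it rose to 808.6, 920.3 and 833.1 (1.34 ± 0.08, adjusted p = 6.88e-11). TRIB3, a pseudokinase and known ATF4 target, went from 5.526, 4.262 and 5.685 CPM to 162, 177.2 and 160 with FB23-2 and to 10.44, 7.278 and 9.781 with CS2. Its groups did not overlap (FB23-2 5.001 ± 0.132, adjusted p = 1.46e-15; CS2 0.82 ± 0.13, adjusted p = 3.56e-05). SESN2 rose by 2.59 with FB23-2 and by 1.16 with CS2. Of the 9, 2 hold the core TGATGNAA in a promoter window.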

How the data were processed

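Libraries of NCI-H69 mRNA were prepared from TRIzol extracts with a Hieff NGS kit, per the labels' protocols. The deposited values are raw read counts, whole numbers for each gene with no normalization. Submitters' processing notes name hg38 as the build. How reads were aligned and counted, and with which strand setting, is not given in the sources used here. The columns headed FB23 were read as FB23-2. Of 15 labelled samples, 9 had columns and 6 were not analysed here.

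Of 62754 gene IDs, 62700 were paired with a symbol, and 58261 were in GENCODE release 29 (GRCh38), which gave coordinates, exon lengths and overlaps. Tests used edgeR 4.0.16 under R 4.3.3 (filterByExpr, minimum count 10 and total 15, leaving 19781 genes, all 35 members among them; TMM; robust quasi-likelihood fit of all 9 libraries by group; Benjamini-Hochberg adjustment). The biological coefficient of variation was 0.101. The SE is the size of the log2 fold change divided by the square root of F. The p-values reflect spread between libraries described as biological replicates. No 2 libraries of a group agreed within sampling noise (the lowest chi-square was 4.11 per degree of freedom). Counting limits cover counting error only. The fit was tested on simulated data. Python 3.11.15 was used for promoters and figures.

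Alternatives were library size alone, RLE factors, testing without a filter, a mean of at least 1 CPM, DESeq2 1.42.0, only the groups compared, a replicate block, no mitochondrial genome genes, a correction for GC content and gene span (mgcv 1.9.3) and leaving out each library. The members and lists were chosen with earlier results of these data known. Values in every library are printed for members called with a log2 fold change of at least 1 in size, called in opposite directions by the compounds, or with the largest called change of their class in a comparison, and for FARSA, FARSB, GARS1 and KARS1. Genes outside that rule are named as chosen after their values were seen. A comparison of protein sequences was not run.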

Additional observations from a re-analysis of the deposited data

How the results depend on the processing

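Over 105 member results and 18 alternatives there were 1887 values, of which 1758 kept direction and side of the threshold, 76 lost a call, 23 gained one and 30 changed sign, 3 of these called. Of 73 called results 54 kept their call in all. For 13 pathway genes 674 of 702 values kept both. VARS2 gave no value under the 1 CPM filter. Without 1 library, cytosolic genes higher with CS2 numbered 2 to 5, cytosolic genes lower with FB23-2 2 to 4 and mitochondrial genes lower with FB23-2 3 to 5. The cytosolic median then was -0.012 to 0.046 with CS2 and 0.755 to 0.781 with FB23-2.

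The GC and span correction, relative to genes of like GC and span, gave 2 cytosolic genes higher and 9 lower with CS2, and 15 higher and 1 lower with FB23-2 than with CS2. Cytosolic medians became -0.126 for CS2, 0.715 for FB23-2 and 0.723 for FB23-2 against CS2, and the mitochondrial median with CS2 was -0.256. It turned the sign with CS2 for FARSA (-0.21), KARS1 (-0.022), RARS1 (-0.031), FARS2 (0.03) and LARS2 (0.085). With FB23-2 it turned RARS1 (-0.11), EARS2 (-0.004), FARS2 (0.22) and TRNT1 (-0.075). Between the compounds it turned FARSA (0.16), QARS1 (0.15), RARS1 (-0.08), VARS1 (0.20), VARS2 (0.31) and WARS2 (-0.011). It added calls with CS2 for HARS1 (-0.21, adjusted p = 0.0105), QARS1 (-0.20, 0.00853), EARS2 (-0.26, 0.00297), VARS2 (-1.19, 0.0446) and, now lower, FARSA (0.0321). It added RARS2 with FB23-2 (-0.17, 0.0386), and between the compounds EARS2 (0.26, 0.00266), TARS2 (0.41, 1.09e-04), EEF1E1 (-0.42, 6.27e-04) and, now higher, QARS1 (0.0372). The cause was not tested.

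RARS2 with FB23-2, at -0.005 and lower only after that correction, was at 0.003 with RLE factors, 0.006 with DESeq2, 0.009 with only the groups compared, 0.008 without mitochondrial genome genes and -0.099 to 0.075 without 1 library. Without 1 library, signs also turned with CS2 for EPRS1 (-0.035 to 0.131), FARSA (-0.012 to 0.039), GARS1 (-0.055 to 0.046), TUFM (-0.046 to 0.025) and MTRF1L (-0.093 to 0.024), and between the compounds for RARS1 (-0.044 to 0.067) and VARS2 (-0.352 to 0.476). None of these passed in the analysis reported.

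Replicate numbers were not taken to pair the samples: same-numbered libraries correlated at -0.033 to 0.323 over 9 pairs, not all above 0.1, and others at -0.256 to 0.099. Between CS2 and FB23-2 each same-numbered pair (0.323, 0.26 and 0.086) was above every other pair (at most 0.032). A replicate block gave 5043 genes higher and 5228 lower with CS2, 5205 and 5493 with FB23-2, and 13 of 19 cytosolic genes higher with FB23-2. With FB23-2 against CS2 the block gave 6024 genes higher and 6112 lower. It added AARS2 with FB23-2 (-0.23, adjusted p = 0.0155), and between the compounds TARS2 (0.19, 0.0418) and EEF1E1 (-0.23, 0.0481). With 3 libraries a group, several calls were lost when a single library was left out. These reached the size of SARS2 with FB23-2 (-0.48) and PSTK with CS2 (-0.49). Both calls were also lost with every library kept, under DESeq2 and without a filter (adjusted p = 0.0685 for SARS2 and 0.118 for PSTK). WARS2 with CS2 was lost under the same settings, and IARS2 with FB23-2 without a filter (0.0838). A planned comparison of protein sequences was not run.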
